A study of Danio rerio with 12 samples.

Results

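Ion channels and ligand-gated receptors are the membrane proteins through which a cell turns light, neurotransmitter or a change of voltage into an ionic current. They were followed here as transcripts in the zebrafish pineal gland, the melatonin-producing gland on top of the brain whose main cells are themselves photoreceptors. Membership was set by gene symbol and by level. A probe set belonged when the platform annotation gave it exactly 1 symbol, when that symbol began with the stem of a calcium, potassium, sodium, cyclic-nucleotide-gated, hyperpolarisation-activated, chloride or TRP channel or of a nicotinic, glutamate, GABA-A, glycine, P2X or ryanodine receptor gene, and when its mean deposited signal over the 12 arrays was 58 or more. Of 15502 non-control probe sets, 55 carried such a symbol and 30 of these, for 26 of the 8793 genes that the annotation names by 1 symbol, reached the floor. The rule used the mean over all arrays and no difference between them.

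The fish were adults of both sexes, 0.5 to 1.5 years old, of the line Tg(aanat2:EGFP)Y8, in which regulatory regions of aanat2 drive a green fluorescent protein in the pineal gland, and all pools shared that transgene. They had lived in cycles of 12 h of light and 12 h of darkness at 28 °C, and constant darkness began at the end of the last light phase. Collection ran every 4 h from circadian time 2 (CT2, 2 h after subjective dawn) to CT22. At each of the 6 times, 1 dark pool came from fish left in darkness and 1 light pool from fish that had just received 1 h of light at 12 W/m2. Each pool held 12 glands and was hybridised to 1 Affymetrix array, so there were 6 dark and 6 light arrays and no second pool of any time and treatment. Of the 17 listed markers of pineal photoreceptors, 13 were on probe sets above the floor. Among them the pineal opsin gene exorh had a mean signal of 1376.7, aanat2 1876.6 and the cone phosphodiesterase gene pde6c 7066. The other 4 had no probe set with 1 symbol above the floor. Passing the floor does not identify a tissue, since 8 of 8 listed skin markers and 11 of 20 brain neuron markers passed it too.

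Photoreceptors of the pineal, like those of the retina, are held depolarised in darkness by a current through cyclic-nucleotide-gated channels, which close when light lowers cyclic GMP. Potassium channels and hyperpolarisation-activated channels then shape the voltage response, and voltage-gated calcium channels couple voltage to transmitter release. Receptors for glutamate, GABA, glycine and acetylcholine are carried, among other cells, by the neurons that receive this output and by brain cells next to the gland. Which cells carried them in these pools was not tested. The roles given below for single subunits are known mainly from mammals. Since each array measured whole glands, fewer cells of a type and less RNA per cell cannot be told apart.

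Not every symbol that begins with a channel stem names a channel. Scnm1 encodes a splicing factor, grinab a membrane protein of the family of BAX inhibitors, and trpc4apa and trpc4apb proteins that were named for binding a TRP channel. These 4 genes accounted for 7 probe sets. The other 23 probe sets, for 22 genes, were channel or receptor subunits: 3 potassium channel genes (kcnb2a, kcnd3 and kcnh2a), cnga1a and hcn2b, 3 calcium channel genes (cacna1c, cacna1ha and cacnb2b), 2 sodium channel genes (scn8aa and scn3b), the chloride transporter gene clcn7, trpm7 with 2 probe sets, 4 glutamate receptor genes (gria2b, grik1a, grik6 and grin1a), 3 GABA and glycine receptor genes (gabrb2a, gabrr2b and glrba) and 3 nicotinic receptor genes (chrna7a, chrnb3a and chrnb3b).

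The floor of 58 lay between cacna1ha (mean signal 58.47), gabrr2b (63.29) and glrba (67.15) inside it and a further probe set of grin1a (53.64), kcnd1 (49.59) and p2rx5 (44.54) outside it. All 3 P2X receptor probe sets, 5 of 8 potassium channel, 4 of 5 chloride channel and 5 of 8 GABA-A and glycine receptor probe sets fell below. So did chrna1 (41.7) and chrne (32.8), subunits of the muscle nicotinic receptor. No probe set with 1 symbol belonged to a ryanodine receptor. The weakest mean below the floor was that of clcn3, with signals of 4.5 to 25.3, and no detection call was available to separate such signals from background. The floor rested on single arrays for some members: without its highest array the mean was 46.7 for grin1a and 53.8 for cacna1ha, and without the 2 highest it was 44.4 for grik6 and 57.7 for gabrr2b. Levels of different probe sets are not compared, because probe sets differ in their affinity.

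Before the results, 2 features of the arrays bear on them. The transcripts spiked into the hybridisation mix (18 probe sets) had a mean log2 signal of 9.53 to 9.78 on 5 of the 6 dark arrays. On the remaining dark array, that of CT22, and on the 6 light arrays the mean was 10.27 to 11.18, so spike-in level and light moved together except at CT22. Markers of brain neurons were uneven between pools. Over 11 of 20 listed genes, some of which photoreceptor cells also express, their mean deviation was 0.40 log2 in the dark pool of CT14, 0.89 in the dark pool of CT18 and 0.56 in the light pool of CT22, against -0.45 to -0.04 in the other 9 pools.

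The first comparison asked which channel and receptor transcripts differed after 1 h of light. A single member rose and none fell. The riser was kcnb2a, which encodes a pore-forming subunit of the delayed-rectifier potassium channels of the Kv2 family, channels that repolarise a cell after sustained depolarisation. A probe set is called here when its adjusted p in limma, with the time point as a block and Benjamini-Hochberg adjustment over all 9621 tested probe sets, was below 0.05. Of all tested probe sets, 1.52% were called higher and 0.696% lower. The counts of 1 and 0 of the 30 members are near these shares.

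The signal of kcnb2a in the dark pools was 154.2 at the lowest, 280.9 at the median and 429.4 at the highest, and in the light pools 396, 586.5 and 751.9. The groups overlapped in 1 place: the dark pool of CT10 exceeded the light pool of CT6. Within each circadian time the light pool was the higher at 6 of 6 times. The mean difference was 1.07 ± 0.19 log2(signal + 13) (SE, n = 6 pairs), which is 2.10-fold, with a 95% interval of 0.65 to 1.50 and an adjusted p of 0.0157 in limma. An exact two-sided sign-flip permutation test over the 6 pairs gave p = 0.03125, the smallest that 6 pairs can give.

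The difference of kcnb2a was not of the same size at each time. It was 2.19 log2 at CT2, where the dark pool was the lowest of the series (154.2) and the light pool the highest (751.9). At the other times it was 0.89 (CT6), 0.54 (CT10), 1.00 (CT14), 0.81 (CT18) and 1.00 (CT22). Without the pair of CT2 the mean was 0.85 and kcnb2a was still called (adjusted p = 0.0297 by limma). At CT22, where both arrays had the higher spike-in level, the signals were 286.9 in the dark and 586.7 in the light. These 2 pools also differed in brain neuron markers (-0.11 in the dark, 0.56 in the light) and oligodendrocyte markers (-0.21 and 0.46). A single pair allows no test.

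Other measures moved with light beside kcnb2a. With the spike-in level of each array in the model its difference was 1.30 ± 0.35 and the adjusted p in limma was 0.280. With the 2 classes of spike-in level and the cosine terms it was 0.90 ± 0.42, with an adjusted p of 0.983. Over 6 of 15 listed genes, skeletal muscle markers had a mean deviation of -0.79 to -0.03 log2 in the dark pools and 0.06 to 0.79 in the light pools, with no overlap, and the muscle actin gene acta1a was called higher (1.30 ± 0.21, adjusted p = 0.00915 by limma). The red blood cell markers were mixed. Of 5 tested, 4 were lower in the light and cahz was called lower (-0.79 ± 0.16, adjusted p = 0.029 by limma). Of the others, hbaa1 (-0.04) and slc4a1a (-0.07) differed little, alas2 was at -0.33 ± 0.16, and hbba2 was higher (0.88 ± 0.46). The mean deviation of the red blood cell markers overlapped, with -0.32 to 0.49 in the dark pools and -0.74 to 0.49 in the light pools. The part of muscle or of red blood cells in the kcnb2a difference was not tested. Brain neuron markers had a mean deviation of -0.45 to 0.89 log2 in the dark pools and -0.29 to 0.56 in the light pools. With their level in the model, an alternative chosen after seeing the data, kcnb2a was at 1.08 ± 0.20 and called. The part of neurons in the kcnb2a difference was not tested either.

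**Figure D1:**
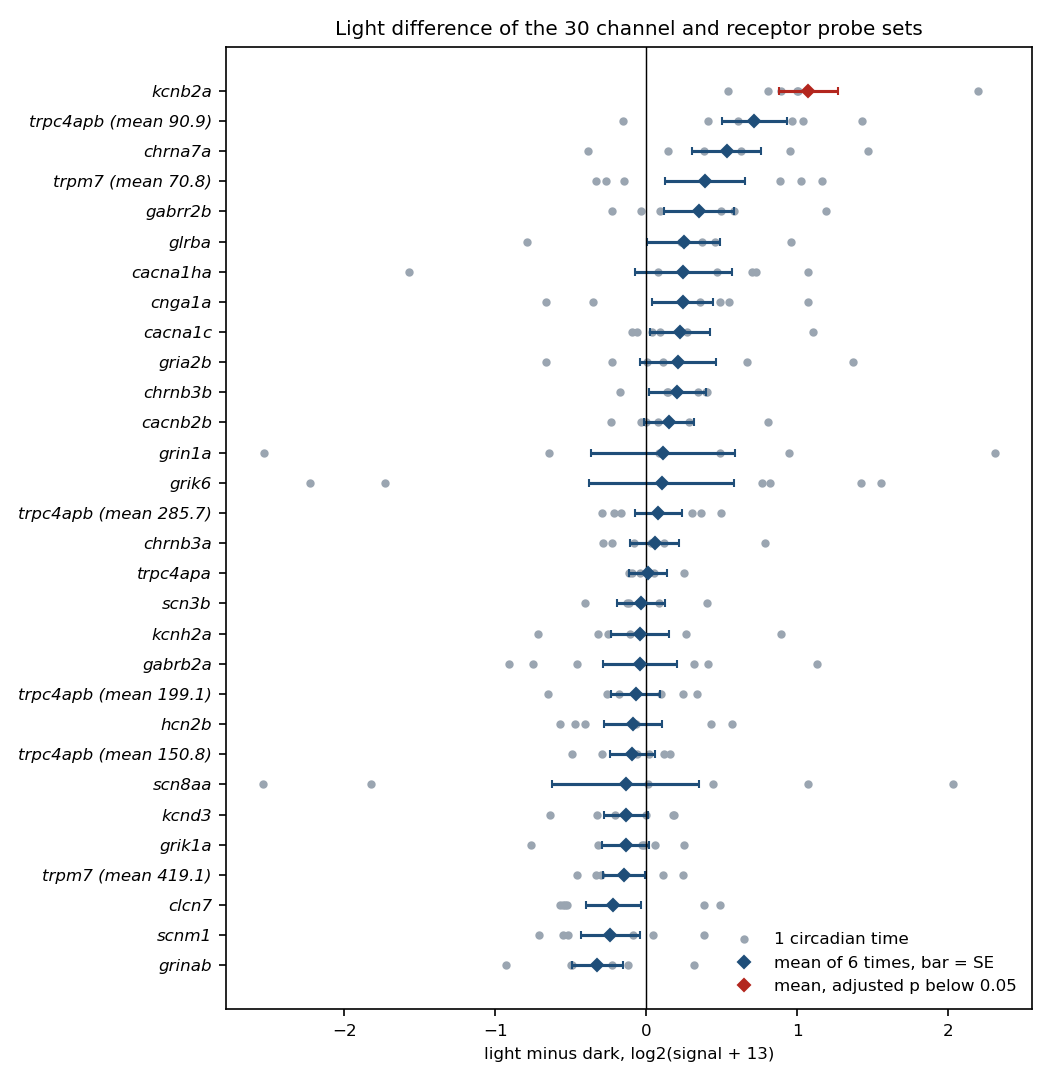
Light minus dark difference of each of the 30 probe sets in log2(signal + 13). Grey points are the 6 circadian times, diamonds the mean over times with its SE, and the red diamond marks the only probe set with an adjusted p below 0.05, kcnb2a, at 1.07; genes with several probe sets are told apart by their mean signal.

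The remaining 29 members did not pass the threshold, and for most the difference was small. Of the 30, 17 differences were positive and 13 negative, with a median of 0.07 log2, and 24 (80%) were smaller than 0.3 in either direction. Over all tested probe sets 53.7% were positive, the median was 0.03 and 68.6% were smaller than 0.3. At an unadjusted p below 0.05 there were 3 members (10%), all higher in the light (kcnb2a, chrna7a and 1 trpc4apb probe set), against 17.4% of all tested. In none of the 30 members did the light and dark groups stand fully apart, as in all but 1.24% of all tested probe sets, so the count says nothing particular about the members. For the 23 subunit probe sets alone, 14 were positive and the median was 0.11. The positive differences include cacna1ha and gabrr2b, whose mean signal reached the floor in the light pools alone. Part of these counts of positive differences is therefore set by the filter.

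The other potassium channel genes showed no call. Kcnd3 encodes a Kv4 channel of the fast, transient A-type current. Its signal was 664.1, 909.4 and 1256.7 (lowest, median and highest) in the dark and 570.7, 775.5 and 1078.8 in the light, a difference of -0.14 ± 0.14 log2 with a 95% interval of -0.45 to 0.18. Kcnh2a encodes an ERG channel, the family that repolarises the heart and sets resting potential in some neurons. Its difference was -0.04 ± 0.19, from signals of 265.8 to 415.5 in the dark and 214.9 to 781.9 in the light. The light pool of CT22 (781.9) lay far above the other light pools, of which the next was 346.4.

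Cnga1a, the alpha subunit gene of the cyclic-nucleotide-gated channel that carries the rod photocurrent, had signals of 785.4, 1099.5 and 1594.1 in the dark and 1000.7, 1305.2 and 1664.1 in the light. The difference was 0.24 ± 0.20, with a 95% interval of -0.20 to 0.685, was not called and changed sign between times: the light pool was lower at CT6 (-0.66) and CT22 (-0.35) and higher at the other 4 times, by up to 1.07 at CT10. Hcn2b, whose channel opens on hyperpolarisation, differed by -0.09 ± 0.19 and was lower in the light at 4 of 6 times. The 2 groups of hcn2b covered much the same range, 66 to 164.3 in the dark and 90.5 to 177.5 in the light.

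**Figure D2:**
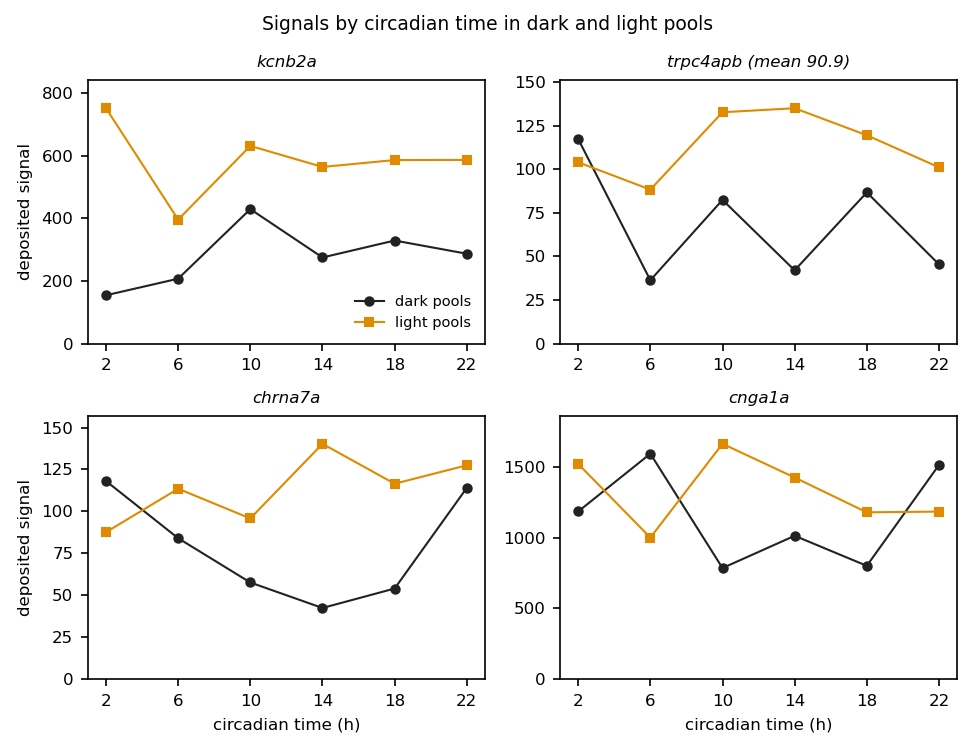
Deposited signal against circadian time (h) for kcnb2a, the weakest trpc4apb probe set, chrna7a and cnga1a, with dark pools as black circles and light pools as orange squares, 1 array each. The light pools of kcnb2a lie above the dark pools at all 6 times, while the lines of the other 3 cross.

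Among the voltage-gated calcium channel genes all 3 differences were positive and none was called. Cacna1c, the pore subunit gene of an L-type channel, differed by 0.22 ± 0.20, with its largest value, 1.10, at CT14, where the dark pool had its lowest signal (37.2). Cacna1ha, for a T-type channel that opens near rest, differed by 0.24 ± 0.32 with signals of 26.6 to 108.1 in the dark and 27.8 to 109.8 in the light. Its mean signal was 52.9 in the dark pools and 64 in the light pools. It thus reached the floor of 58 through the light group, so its positive sign is partly set by the filter. Cacnb2b, for an auxiliary beta subunit, differed by 0.15 ± 0.17. With spike-in level in the model the differences of cacna1c (-0.30) and cacnb2b (-0.15) turned negative, so no direction is drawn for them.

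Neither sodium channel gene was called, and no direction is drawn for them. Scn8aa, for the pore of a neuronal sodium channel, had a mean difference of -0.13 ± 0.49, while it was higher in the light at 4 of 6 times, with -2.54 at CT14, -1.82 at CT18 and 2.03 at CT22. Scn3b, for an auxiliary beta subunit, was at -0.04 ± 0.16, with signals of 112.6 to 134.6 in the dark and 98.3 to 175.6 in the light. Clcn7, for a lysosomal chloride-proton exchanger, was at -0.22 ± 0.18, with 4 times between -0.57 and -0.52 and the others, CT2 and CT10, at 0.49 and 0.38.

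Trpm7 encodes a channel that carries divalent cations and is fused to a kinase, and its 2 probe sets did not give the same picture. The stronger one (mean signal 419.1) was at -0.15 ± 0.14. Its 6 light pools lay between 383.8 and 402.4, while the dark pools spread from 321.5 to 536; the difference in spread was not tested. The weaker one (mean signal 70.8) was at 0.39 ± 0.26, with 0.89, 1.03 and 1.17 at CT2, CT6 and CT10 and -0.27, -0.33 and -0.14 at CT14, CT18 and CT22.

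The second-largest difference belonged to 1 of 4 probe sets of trpc4apb and was not shared by the other three. The probe set with a mean signal of 90.9 had signals of 36.3, 63.9 and 117.3 in the dark and 88.3, 111.8 and 135 in the light, a difference of 0.72 ± 0.22 (adjusted p = 0.114 by limma), higher at 5 of 6 times. The probe sets with mean signals of 285.7, 199.1 and 150.8 were at 0.08 ± 0.15, -0.07 ± 0.16 and -0.09 ± 0.15. Of these, 2 have the suffix that Affymetrix gives to probe sets shared by several transcripts. Trpc4apa was at 0.01 ± 0.13 and was the steadiest member, with all 12 signals between 354.2 and 423.3. Scnm1 (-0.24 ± 0.20) and grinab (-0.33 ± 0.17, lower at 5 of 6 times) had the lowest mean differences of the 30 and were not called.

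Of the nicotinic receptor genes, chrna7a came closest to a call. It encodes the alpha7 subunit, which forms receptors with high calcium permeability. Its signals were 42.4, 70.8 and 118.1 in the dark and 87.6, 115 and 140.3 in the light, a difference of 0.53 ± 0.23 (adjusted p = 0.262 by limma). The light pools were higher at 5 of 6 times, by the most at CT14 (1.47) and CT18 (0.95), and lower at CT2 (-0.38). With spike-in level in the model the difference was -0.23. Chrnb3b (0.21 ± 0.19) and chrnb3a (0.06 ± 0.16) encode beta3 subunits, accessory subunits best known from the habenula and other brain nuclei; chrnb3b was higher at 5 of 6 times.

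The inhibitory receptor genes did not differ beyond their spread. Gabrr2b, for a rho subunit of the kind of GABA receptor found in retinal bipolar cells, was at 0.35 ± 0.23 (51.4 at the median in the dark and 72.4 in the light). Its mean signal was 54.5 in the dark pools and 72.1 in the light pools. As it reached the floor of 58 through the light group, its positive sign is partly set by the filter. Glrba, for the glycine receptor beta subunit that anchors the receptor at synapses, was at 0.25 ± 0.24, higher at 5 of 6 times. Gabrb2a, for a beta subunit of GABA-A receptors, was at -0.04 ± 0.25, with -0.91 at CT14, -0.75 at CT18 and 1.13 at CT22.

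The glutamate receptor genes also held no call. Grik1a, for a kainate receptor subunit, was at -0.14 ± 0.15, with signals of 336.6 to 515.2 in the dark and 193.9 to 593.6 in the light. Gria2b, for the AMPA receptor subunit that limits calcium entry, was at 0.21 ± 0.25, with its largest value, 1.37, at CT14. Grin1a, for the subunit that every NMDA receptor contains, was at 0.11 ± 0.48, and grik6, of the kainate receptor family, at 0.10 ± 0.48. Their errors were wide, and single pairs reached -2.53 and 2.31 for grin1a and -2.23 and 1.56 for grik6.

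Some receptor and sodium channel members had their highest signals on the arrays with the most brain neuron marker signal; the 4 given here were chosen after their values were seen. Scn8aa was at 375.3 in the dark pool of CT18 and 169.4 in that of CT14, against 18.4 to 119.7 in the other 10 pools. Grin1a was at 344.9 in the dark pool of CT18 and at 4.2 to 84.7 elsewhere. Its further probe set, below the floor, did not exceed 101.8 on any of the 12 arrays (lowest 19.1). Grik6 was at 219 in the dark pool of CT18 and 205 in that of CT14, and at 14.6 to 79.5 elsewhere, with 79.5 in the light pool of CT22. Gabrb2a had its 3 highest signals in the dark pools of CT18 (354.6) and CT14 (270.6) and the light pool of CT22 (254.6). These are the 3 pools with the highest neuron marker levels. Grin1a, grik6 and cacna1ha passed the floor through these same high pools, so that part of their pattern is set by the filter. The 2 highest signals of cacna1ha were in the light pool of CT22 (109.8) and the dark pool of CT18 (108.1). Without them its mean was 48.4. In the same 3 pools some members had their lowest signal of the 12. In the dark pool of CT18 these were gabrr2b (34.2) and cacnb2b (85.3). In that of CT14 they were chrna7a (42.4), chrnb3a (134.7), chrnb3b (43.3), gria2b (42.9) and cacna1c (37.2). In the light pool of CT22 they were grik1a (193.9) and clcn7 (214).

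Other markers moved on the same arrays. In the dark pool of CT18, oligodendrocyte (0.79) and glia (0.40) markers were at their highest of the 12 pools and skin markers at their lowest (-1.48). The 13 pineal photoreceptor markers ranged from -0.30 to 0.25 over the 12 pools. They were low in the dark pool of CT18 (-0.29), lowest in the light pool of CT22 (-0.30) and at 0.16 in the dark pool of CT14. The dark pool of CT18 held the highest value for 6 of the 30 members (20%), against 8.99% of all tested probe sets. The 6 include grin1a and grik6, which passed the floor through their high pools, so part of this share is set by the filter. For the other pools high in neuron markers the shares were 10% against 7.69% (dark pool of CT14) and 10% against 11.2% (light pool of CT22). The light pool of CT18, low in neuron markers (-0.19), had 13.3% against 7.35%. Each of these shares rests on 3 to 6 members, and the pools were not tested against each other. Neuron marker level in the model was an alternative chosen after seeing the data. With it the light difference was 0.09 for scn8aa, 0.06 for gabrb2a, 0.32 for grik6 and 0.29 for grin1a, none called. The circadian amplitude fell for some members, among them gabrb2a (0.04, against 0.38 without it) and grik6 (0.42, against 0.63). For others it rose, among them cacnb2b (0.31, against 0.07), gabrr2b (0.26, against 0.09) and grin1a (0.49, against 0.45). The part of neurons or of any other cell type in these shares was not tested.

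**Figure D3:**
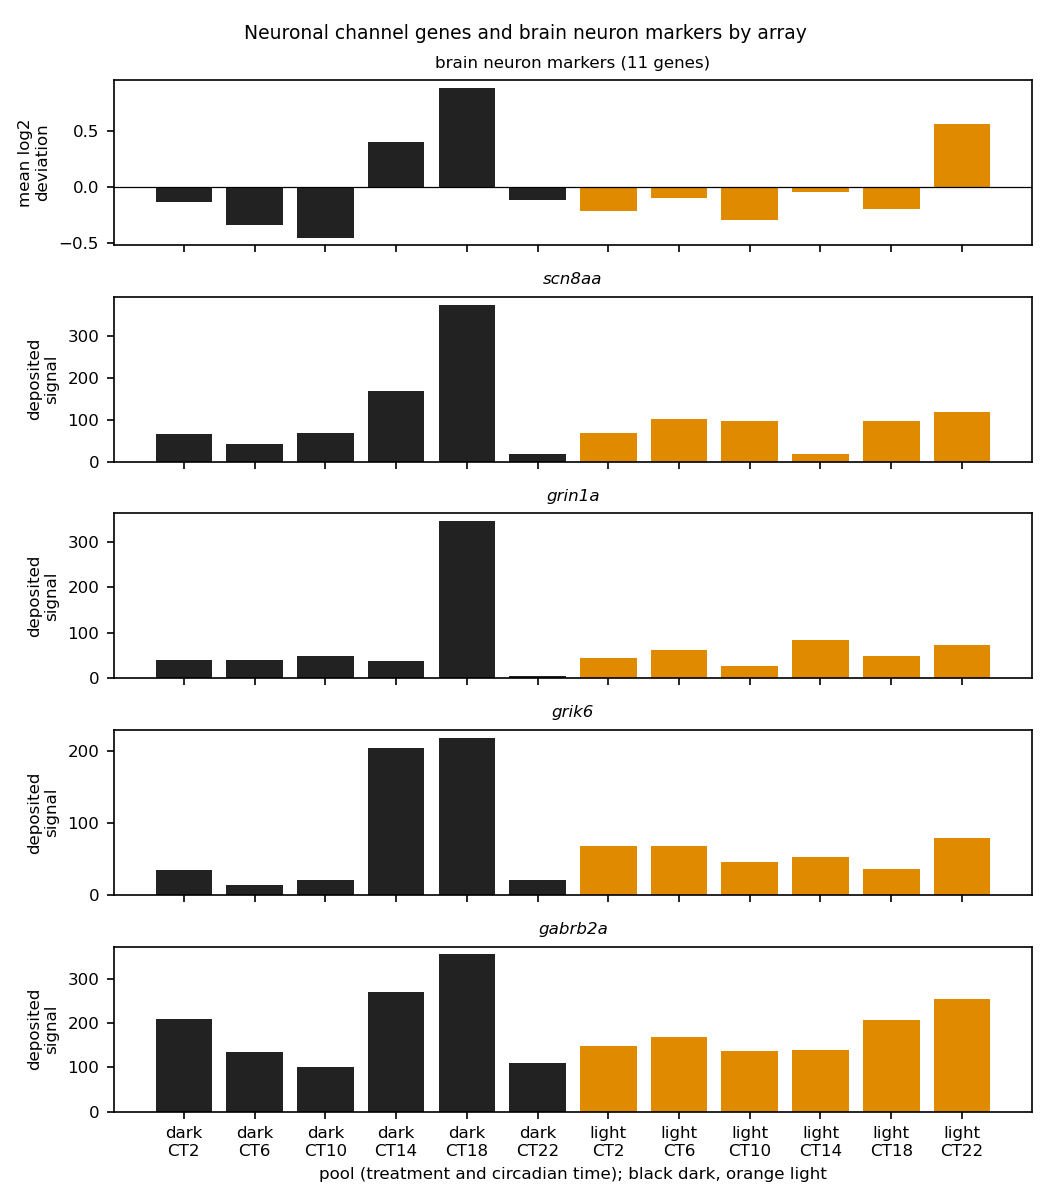
Mean log2 deviation of 11 brain neuron marker genes (top) and deposited signals of scn8aa, grin1a, grik6 and gabrb2a on each of the 12 arrays, dark pools in black and light pools in orange. The dark pool of CT18 is the highest bar in all 5 panels; the dark pool of CT14 is high for scn8aa (169.4), grik6 (205) and gabrb2a (270.6) but not for grin1a (37.7).

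The second comparison asked which members varied with circadian time. None was called by the F-test of a 24 h cosine in limma, where 1.92% of all tested probe sets were. For 30 members a count of 0 is near that share, so it says nothing particular about them. At an unadjusted p below 0.05 there were 5 members (16.7%), against 14.9% of all tested, and the smallest adjusted p of a member was 0.137. The median amplitude of the members, which is the height of the fitted cosine above its mean, was 0.21 log2, against 0.20 over all tested probe sets. Fitted peaks fell between CT12 and CT24 for 22 of the 30 members (73.3%), against 48.9% of all tested probe sets. The members with such peaks include grin1a (CT16.1), grik6 (CT17) and cacna1ha (CT18.2). These passed the floor only through high pools of that window, so part of this share is set by the filter. Of the 30, 4 were probe sets of trpc4apb, and 1 of these had its fitted peak outside, at CT8.1. The 11 tested brain neuron markers also had fitted peaks in that window, from CT16.5 (snap25b) to CT20.9 (sncb), except nsg2 (CT1.8) and calb2a (CT3.3). As no member and none of these markers was called, these peak times are descriptions of uncalled fits. Only 1 cycle was covered, with 1 pool of each treatment per time.

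The 5 members with an unadjusted p below 0.05 were kcnh2a, kcnd3, chrnb3a, grik1a and hcn2b, and none passed the adjusted threshold. Kcnh2a had the largest amplitude of these (0.49 ± 0.13, SE, peak at CT22.0, adjusted p = 0.137 by limma). Its dark pools ran from 373.9 at CT2 through 399, 271.7, 265.8 and 409 to 415.5 at CT22, and its light pools from 346.4 through 237.4, 214.9, 322.2 and 341.8 to 781.9. The low values stood at CT10 and CT14 in the dark and at CT6 and CT10 in the light. The fitted amplitude was 0.31 from the dark arrays alone and 0.71 from the light arrays alone, where CT22 stood far above the rest.

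Kcnd3 had a smaller amplitude (0.35 ± 0.09, peak at CT22.7, adjusted p = 0.155 by limma) in both treatments together; fitted apart, it was 0.39 in the dark with a peak at CT23.0 and 0.31 in the light with a peak at CT22.3. Its dark pools were 950.3, 894, 664.1, 723.5, 924.7 and 1256.7 from CT2 to CT22, and its light pools 1078.8, 570.7, 751.1, 723.1, 799.9 and 1001.8. In both treatments CT2 and CT22 were above CT10 and CT14. Chrnb3a (0.39 ± 0.11, peak at CT22.8) had its highest dark signals at CT2 (318.7) and CT22 (300) and its lowest at CT14 (134.7), and in the light its highest at CT22 (306.9) and its lowest at CT6 (170.8).

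Grik1a had its fitted peak near the start of the subjective night (0.42 ± 0.12, CT13.3, adjusted p = 0.179 by limma). The dark pools were 336.6, 369.1, 505.2, 515.2, 497.5 and 337.7 and the light pools 332.5, 384.6, 402.9, 505.8, 593.6 and 193.9 from CT2 to CT22. In the light, CT18 was the highest and CT22 the lowest pool, 4 h apart. Hcn2b reached an amplitude of 0.39 ± 0.12 (adjusted p = 0.236), with its highest fitted value at CT17.7, and peaked at CT16.2 in the dark and CT19.1 in the light. Clcn7 (0.21 ± 0.12, CT9.2) did not follow a cosine in the dark, where its signal alternated between 303.5, 458.4, 309.2 and 476.5 over the first 4 times.

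**Figure D4:**
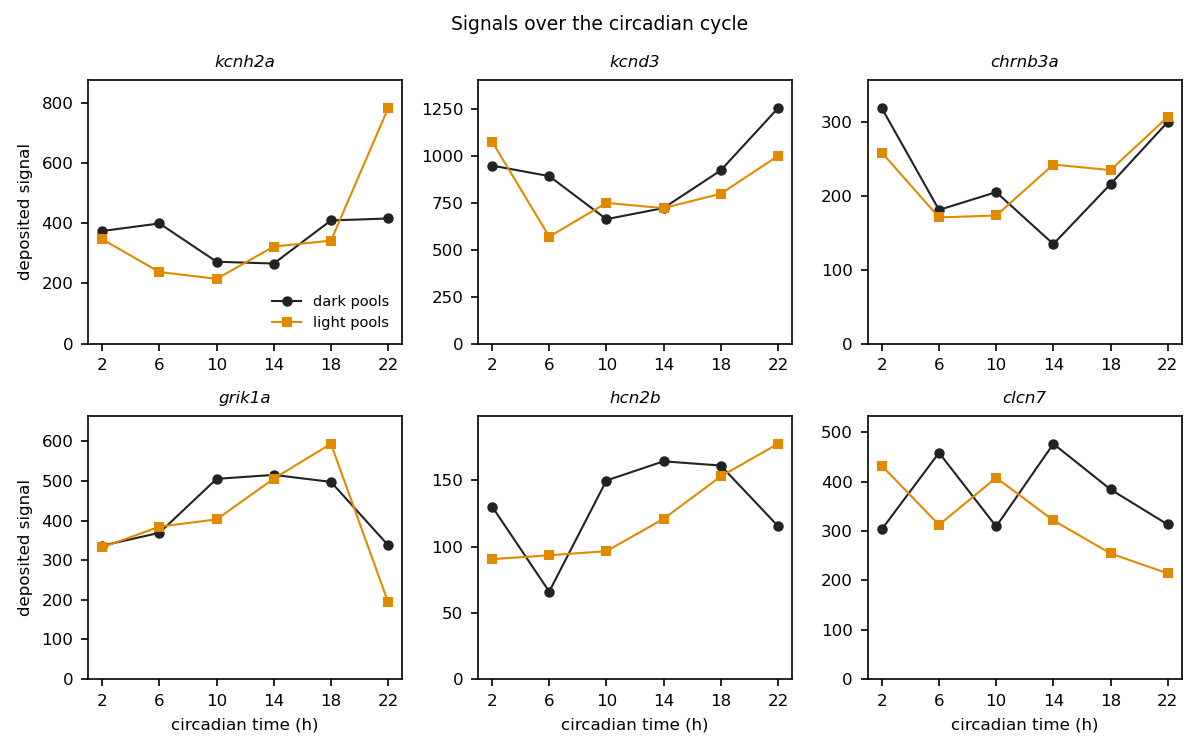
Deposited signal against circadian time (h) for kcnh2a, kcnd3, chrnb3a, grik1a, hcn2b and clcn7, dark pools as black circles and light pools as orange squares, 1 array each. Kcnd3 is higher at CT2 and CT22 than at CT10 and CT14 in both treatments, and the light pool of CT22 stands at 781.9 for kcnh2a and 193.9 for grik1a.

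The largest fitted amplitude of all members, 0.63 ± 0.32 for grik6, was far from the threshold (adjusted p = 0.538 by limma), and the next after kcnh2a, grin1a (0.45 ± 0.35), was as well. Leaving out CT18 gave 0.59 for grik6 and 0.25 for grin1a, and leaving out CT14 gave 0.49 and 0.61. With neuron marker level in the model they were 0.42 and 0.49. From the dark arrays alone grik6 had an amplitude of 1.53 and from the light arrays alone 0.33. Cnga1a did not vary with a clear phase (0.16 ± 0.13), with fitted peaks at CT2.1 in the dark and CT11.4 in the light. Kcnb2a, the member that rose with light, had an amplitude of 0.23 ± 0.14 (adjusted p = 0.642). The trpc4apb probe sets lay between 0.03 and 0.14 and trpc4apa at 0.04.

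The third comparison asked whether the response to light depended on circadian time. None of the members was called by the joint test of light with the cosine terms (0% of all tested probe sets) or for subjective night against subjective day (also 0%); at an unadjusted p below 0.05 limma gave 2 members (6.67%, against 9.26% of all tested) and 3 members (10%, against 3.24%). Grik6 had the smallest p in the joint test (adjusted p = 0.484 by limma), with a mean light difference of 1.05 by day and -0.85 by night. The negative night mean came from CT14 (-1.73) and CT18 (-2.23), whose dark pools are the ones that put grik6 above the floor. Grik6 is among the members with an unadjusted p below 0.05 in both tests, so part of both shares is set by the filter. Chrna7a followed (adjusted p = 0.488), with 0.21 by day and 0.85 by night. For night against day, the weaker probe set of trpm7 differed by -1.28 ± 0.39 (adjusted p = 1.00 by limma), with 1.03 by day and -0.25 by night, and its stronger probe set by -0.04 ± 0.30. Gria2b went from -0.30 by day to 0.72 by night (adjusted p = 1.00), and kcnb2a from 1.21 to 0.94, a change of -0.27 ± 0.40.

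Genes that work beside the channels gave no call either. Over all tested probe sets, 1.52% were called higher in the light, 0.696% lower and 1.92% for circadian time. In lists of 28 and 10 genes, 0 calls are near those shares and say nothing particular about these genes. Of 28 genes of calcium stores, ion pumps and small channels, 14 were higher and 14 lower in the light and none was called, with a median of 0.00 log2. The smallest p belonged to calm3a, a calmodulin gene (-0.87 ± 0.21, adjusted p = 0.0560 by limma), followed by clic4 (0.62 ± 0.23), of the family of chloride intracellular channels, and atp2a1l (0.60 ± 0.24), related to the calcium pump of muscle. For circadian time the smallest p was that of atp1b3a, a sodium pump subunit gene (amplitude 0.47 ± 0.11, peak at CT22.6, adjusted p = 0.0829), then atp2b1a (0.54 ± 0.16), a plasma membrane calcium pump gene, and clic1 (0.33 ± 0.10). Of 10 genes of receptor anchoring and channel partners, 4 were higher, 6 lower and none called. The scaffold gene caska (-0.89 ± 0.28, adjusted p = 0.124 by limma) and the synaptic adhesion genes nrxn1a (-0.72 ± 0.37) and nlgn1 (0.63 ± 0.33) had the smallest p for light. For circadian time nrxn1a (0.74 ± 0.26), kctd12.1 (0.30 ± 0.12), for a partner of GABA-B receptors, and homer3b (0.17 ± 0.09) did.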

How the data were processed

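The authors deposited 1 linear intensity per probe set and array; the submitters' processing notes name GCOS and MAS5, without versions. From the deposited values, the 2% trimmed mean was 200.035 to 200.042 on every array, so the arrays had been scaled to a common level, and no further scaling was applied. Per the labels' protocols, RNA was amplified in rounds from an oligo(dT) primer, which favours the 3' part of each transcript. The table held 15617 rows, 115 of them Affymetrix controls. The genome build is not given in the sources used here, and no coordinates or sequences are printed.

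Intensities were taken as log2(signal + 13), which understates the fold change of weak probe sets. All 9621 non-control probe sets with a mean signal of 58 or more were tested, so that every member was. Linear models were fitted with limma 3.58.1 in R 4.3.3 (eBayes, trend on mean intensity); tests were two-sided and adjusted by the Benjamini-Hochberg method. Light was tested with the time point as a 6-level block (5 residual degrees of freedom), circadian time by an F-test of a 24 h cosine and sine beside light (8), and the dependence of light on time by products of light with the cosine terms (6) or with night (4). Times act as replicates, so p-values measure the spread over times and pools. The pairing comes from the labelled time points; deviations of paired arrays correlated with r of -0.05 to 0.29, and of unpaired arrays with r of -0.36 to 0.36. The steps were tested on simulated data.

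Members and lists were chosen with earlier results of these data known. Named were called members, the 8 highest and 8 lowest light differences, the 8 largest amplitudes, and in each role group the member with the highest mean signal and the smallest p of each test; chrnb3b, gria2b and trpc4apa fell outside this rule and were added so that every member is accounted for. Of the partner lists, the 3 smallest p were named. Where a gene had several probe sets, a list used the one with the highest mean. Markers of oligodendrocytes, habenula, red blood cells, skin and glia (6, 2, 5, 8 and 5 genes tested) were also computed. Their mean deviation lay between -0.27 and 0.79, -0.52 and 0.34, -0.74 and 0.49, -1.48 and 1.44, and -0.26 and 0.40 log2 over the 12 arrays. Alternatives covered normalization, pseudocount, filter, spread estimate, block, spike-in level and class, neuron marker level, single treatments and each time left out. The number of arrays limits the precision.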

Additional observations from a re-analysis of the deposited data

Results flagged for a closer look

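Within the 6 dark or the 6 light arrays, 4 of 60 groups held a lone extreme signal by Dixon's test at 95%, a rate close to the 1 in 20 that chance gives. In the light pools, kcnh2a stood at 781.9 at CT22 (next 346.4), scn8aa at 18.4 at CT14 (next 67.6), cacna1c at 55.5 at CT2 (next 94.7) and cacnb2b at 96.6 at CT6 (next 140.8). The light pool of CT22 was also high in brain neuron (0.56 log2) and oligodendrocyte (0.46) markers; their part in the kcnh2a value was not tested. Each of the 12 arrays is the only one of its time and treatment, so none of these values has a second pool beside it.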

How the results depend on the processing

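The count of 1 member called for light and of 0 for the other tests was the same under every alternative run except those that added spike-in measures to the light test. With spike-in level 0 members were called (6 of all tested probe sets), with kcnb2a at 1.30, and with spike-in class and cosine terms 0 (3 of all tested), with kcnb2a at 0.90. Under the other 16 tested alternatives kcnb2a was called. Leaving out each time in turn, it lay between 0.85 and 1.18, with adjusted p of 0.0249 to 0.0463 in limma. With no replicate block 1 member was called for light (kcnb2a at 1.07, adjusted p = 0.0271), and with cosine terms in place of the block also 1. The circadian count stayed at 0 in 18 alternatives, while calls over all tested probe sets ranged from 20 (dark arrays alone) to 194 (pseudocount of 50), against 185. Light calls over all tested probe sets, 213 as reported, were 65 without CT10 and 340 without CT22. The pair of CT22 alone gives no count of calls. Quantile normalization made some uncalled light differences of weak members smaller. Among them were chrnb3b (0.04, against 0.21), gria2b (0.06, against 0.21), gabrr2b (0.19, against 0.35) and chrna7a (0.39, against 0.53). That of the stronger cnga1a became larger (0.32, against 0.24).

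Light differences of uncalled members changed sign as follows; the cause was not tested. With spike-in level they were -0.30 for cacna1c, -0.15 for cacnb2b, -0.23 for chrna7a, -0.32 for chrnb3a, -0.17 for cnga1a, 0.81 for gabrb2a, -0.12 for gabrr2b, -0.21 for gria2b, 0.29 for hcn2b, 0.24 for kcnh2a, 1.98 for scn8aa, 0.25 for scnm1, -0.0605 for trpc4apa, 0.21 for trpc4apb (mean signal 199.1) and 0.17 for trpm7 (419.1). With spike-in class and cosine terms they were -0.27 for cacna1c, -0.26 for cacnb2b, -0.0254 for chrnb3a, -0.27 for cnga1a, 1.09 for gabrb2a, -0.32 for gabrr2b, 0.27 for hcn2b, 0.28 for kcnh2a, 0.0821 for scn3b, 1.91 for scn8aa, 0.17 for scnm1, -0.0761 for trpc4apa, 0.40 and 0.14 for trpc4apb (199.1 and 150.8) and -0.61 for trpm7 (70.8). In the pair of CT22 alone, where both arrays had the higher spike-in level and no test is possible, 13 of the 30 had the other sign: -0.0618 for cacna1c, -0.23 for cacnb2b, -0.35 for cnga1a, 1.13 for gabrb2a, -0.23 for gabrr2b, 0.57 for hcn2b, 0.89 for kcnh2a, 2.03 for scn8aa, 0.38 for scnm1, -0.11 for trpc4apa, 0.34 for trpc4apb (199.1), and 0.11 and -0.14 for trpm7 (419.1 and 70.8). With neuron marker level gabrb2a was at 0.0573 and scn8aa at 0.0869, with a pseudocount of 50 grik6 at -0.0484 and grin1a at -0.0351, with quantile normalization grin1a at -0.0698, and with median centring trpc4apa at -0.0200. Leaving out each time in turn, chrnb3a lay between -0.0891 and 0.13, gabrb2a -0.28 and 0.13, gria2b -0.0216 and 0.39, grik6 -0.19 and 0.57, grin1a -0.33 and 0.64, hcn2b -0.22 and 0.0106, kcnh2a -0.23 and 0.10, scn3b -0.12 and 0.0387, scn8aa -0.57 and 0.35, trpc4apa -0.0369 and 0.0351, and trpc4apb -0.15 and 0.0473 (199.1) and -0.00215 and 0.16 (285.7).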
